A study of Mus musculus with 5 samples.

Results

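The DRB treated sample is a single 4C array, and it was set against the 2 untreated arrays of the same series, A and B, so that 3 of the 5 deposited arrays enter the comparison. The arrays were chosen by their sample titles. All cells were taken from fetal livers of mice on embryonic day 14.5 and kept in culture. The DRB sample received 100 µM DRB for 3 h, whereas the untreated cells were cultured for 5 h according to the methods, so that drug and culture time differ together. The DRB array and untreated B were read in Cy5 and untreated A in Cy3, and each of the 3 was hybridised on its own slide. The remaining 2 arrays, from cells given α-amanitin, enter the quantile normalisation, the placing of the viewpoint and the limma fit, and otherwise show how far arrays of one treatment can lie apart. The DRB treatment has no replicate, and p-values measure only the spread between these samples. The methods call the samples on an array independently processed, and the sources used here do not say whether the untreated pair came from separate livers.

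4C on array starts from one chosen piece of chromatin, the viewpoint. Cross-linked chromatin is cut with HindIII, the ends that lie close together are ligated, the circles formed after a further cut with NlaIII are amplified from the viewpoint by inverse PCR, and the products are hybridised to probes placed beside HindIII sites. A bright probe is therefore read as a fragment that was ligated to the viewpoint, although a few control probes for human sequence were bright as well. Here the viewpoint is the promoter of β-major, an adult β-globin gene that is transcribed at a very high rate in the erythroid cells that fill the fetal liver, and that contacts a distant enhancer, the locus control region. DRB inhibits kinases that phosphorylate serine 2 in the C-terminal repeats of RNA polymerase II, which leaves the polymerase at promoters but holds back elongation, while α-amanitin binds the polymerase itself. The comparison asks whether the contacts of an active gene outlast a block of elongation. The arrays carry no measure of RNA, so that neither the cell type nor the effect of DRB on transcription can be checked in these files.

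Each array holds 385000 probes, of which 57765 lie on chromosome 7 with the viewpoint and 326901 on the other 6 mouse chromosomes. The median signal was 476 in untreated A, 419 in untreated B and 469 in DRB. Probe positions were listed as 0, so that the order of probes was taken from the number at the end of each identifier, and distances from the viewpoint are approximate, at 60 kb for every 29 probes, with negative distances towards lower probe numbers. Neither a genome build nor gene names can be tied to them. The signal is an intensity with no read depth, and the number of arrays limits the precision of every value. Most of the 210 control probes for the human β-globin locus stayed dim in all 3 arrays. Their medians were 368, 318 and 300 in untreated A, untreated B and DRB. In the same order, 1, 2 and 3 of them reached 5000, the limit used below for bright probes. The 124 probes listed apart for the mouse β-globin locus were bright in all 3, with medians of 49521, 54141 and 52594, and the DRB value lay between the untreated ones.

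Next to the viewpoint the contact profile after DRB peaked as high as in untreated cells and had somewhat less signal in its flanks. In the window of 29 probes at the viewpoint the mean uncorrected signal was 56460 in untreated A, 58044 in untreated B and 58093 in DRB, and 28 of its probes reached 5000 in each array. This window is close to the top of the scanner range, which limits what a difference there can show. Within 0.5 Mb the mean signal of the windows was 24313 and 25010 in untreated A and B and 22378 in DRB. Between 0.5 and 2 Mb it was 5304 and 5974 in the untreated arrays and 4819 in DRB, again the lowest of the 3. The rank correlation over the 16 windows within 0.5 Mb was 0.853 between DRB and untreated A and 0.815 between DRB and untreated B, beside 0.941 between the untreated arrays. Between 0.5 and 2 Mb, over 50 windows, these were 0.729, 0.627 and 0.790. The sides differed there: over the 25 windows on the side of lower probe numbers the values were 0.688, 0.646 and 0.745, and over the 25 on the other side 0.410, 0.269 and 0.613. These windows share arrays and probes on a steep decline with distance and are given as a description.

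**Figure D1:**
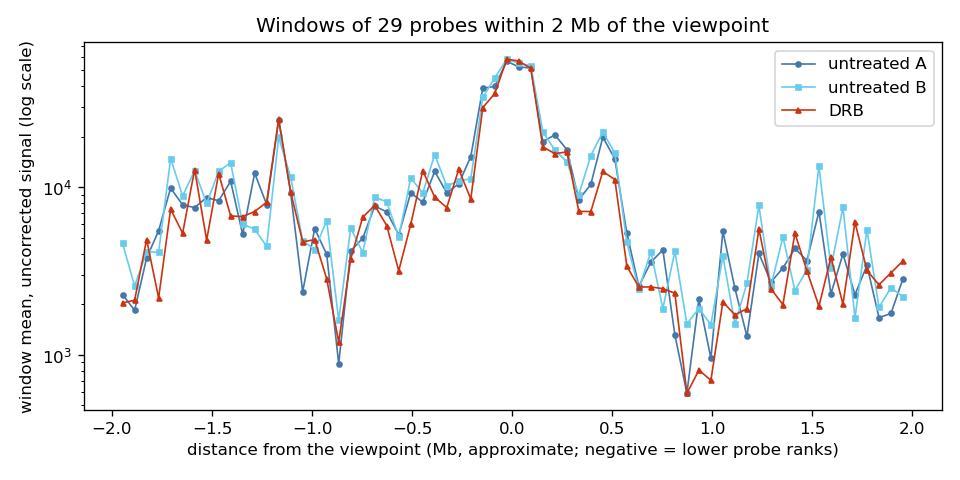
Mean uncorrected signal (log scale) of the non-overlapping windows of 29 probes against their approximate distance from the viewpoint in Mb, 1 line per array. The 3 lines meet at the viewpoint, at 56460 to 58093, and the DRB line tracks the untreated lines more closely on the side of lower than of higher probe numbers, where the window at 1.53 Mb falls to 1946 from 7148 and 13371.

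With quantile normalised signal, which gives every array the same distribution, the DRB windows within 2 Mb were lower than those of both untreated arrays in 53 of 66 windows and higher than both in 3. The median log2 difference of these windows was -0.65 against untreated A and -0.71 against untreated B, while untreated B minus A was 0.03. Across windows the differences had standard deviations of 0.66, 0.77 and 0.58. Against the mean of both untreated arrays the median was -0.67. The size of this difference depended on the scale. With uncorrected signal the median difference within 2 Mb was -0.15 against untreated A and -0.30 against untreated B, beside 0.17 for untreated B minus A, and DRB was below both in 35 of the 66 windows.

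Away from the viewpoint the direction of the DRB difference depended on the scale altogether. Over the 1925 windows beyond 2 Mb the median log2 difference was -0.06 against untreated A and -0.07 against untreated B after quantile normalisation over all probes, but 0.32 and 0.30 in uncorrected signal. What held on both scales was that the difference was lower near the viewpoint than far from it. With quantile normalised signal the median difference against untreated A went from -0.69 within 0.5 Mb and -0.65 at 0.5 to 2 Mb to -0.23 at 2 to 5 Mb, -0.15 at 10 to 20 Mb and 0.03 beyond 40 Mb. Against untreated B it was -0.56 within 0.5 Mb, lowest at -0.85 between 0.5 and 2 Mb, and then -0.31, -0.13 and 0.08 over the same classes, whereas untreated B minus A stayed between -0.06 and 0.06 in every class. Both sides of the viewpoint showed it: between 0.5 and 2 Mb the medians against untreated A were -0.62 on the side of lower and -0.69 on the side of higher probe numbers.

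**Figure D2:**
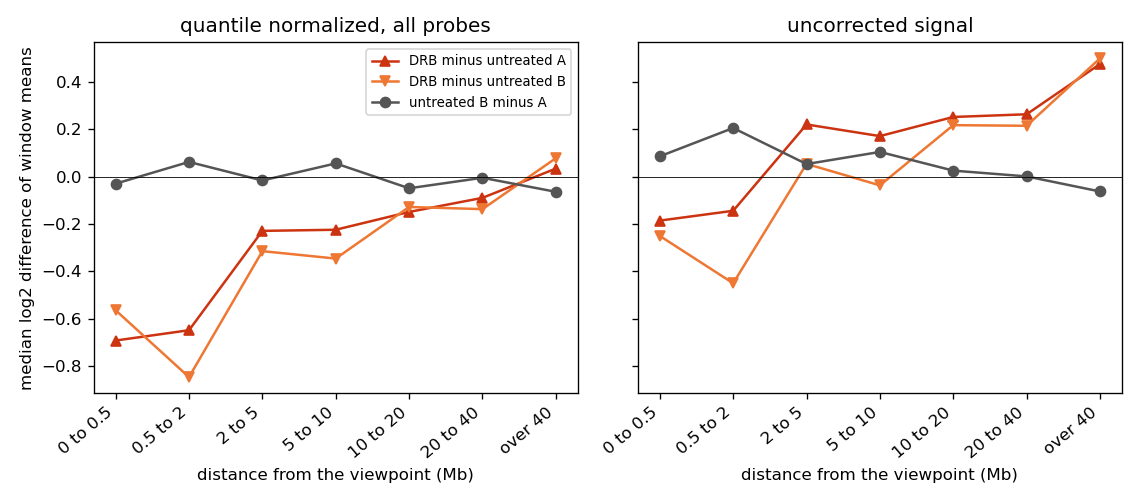
Median log2 difference of window means in 7 classes of distance from the viewpoint (Mb), for DRB minus each untreated array and for untreated B minus A, with quantile normalised signal on the left and uncorrected signal on the right. Both DRB lines end higher beyond 40 Mb than they start within 0.5 Mb on both scales, going from -0.69 and -0.56 to 0.03 and 0.08 on the left, while the line for the untreated arrays stays between -0.06 and 0.06 on the left and goes from 0.21 at 0.5 to 2 Mb to -0.06 on the right.

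The contrast between near and far windows was larger than that between the untreated arrays, and came near that between the α-amanitin duplicates. The median within 2 Mb minus the median beyond 2 Mb was -0.58 for DRB against untreated A and -0.65 against untreated B in quantile normalised signal, beside 0.06 for untreated B minus A. These duplicates, which had the same treatment, differed by 0.47 on this measure, and by 0.62 in uncorrected signal, where DRB gave -0.47 and -0.61. The DRB contrasts thus exceeded that of the α-amanitin duplicates in quantile normalised signal and did not in uncorrected signal, where untreated B minus A gave 0.19. Set against untreated A and B, α-amanitin A gave -0.39 and -0.58 in quantile normalised and -0.39 and -0.59 in uncorrected signal. α-amanitin B gave 0.02 and 0.10, and 0.19 and 0.13. A contrast of this direction was therefore also present in α-amanitin A and absent in α-amanitin B.

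The change with distance can also be read from the bright probes without any averaging. A limit of 5000 was chosen after the data were seen. Within 2 Mb, 32.4% of 1933 probes reached it in untreated A, 39.4% in untreated B and 29.7% in DRB, the lowest of the 3. α-amanitin A was lower still at 19.1%, and α-amanitin B had 31.3%. Between 2 and 40 Mb the shares were 6.98%, 8.42% and 7.68%, so that DRB lay between the untreated arrays. Beyond 40 Mb they were 3.31% and 3.69% in the untreated arrays and 6.11% in DRB. On the other 6 chromosomes the shares were 2.09%, 2.52% and 4.29%, or 14018 bright probes in DRB where untreated A had 6831 and untreated B had 8249. The DRB share beyond 40 Mb was thus 1.66 times, and on other chromosomes 1.70 times, the higher of the untreated ones, while untreated B had 1.11 and 1.21 times the share of untreated A. At the same limit in quantile normalised signal these ratios for DRB were 1.01 and 1.13. The excess beyond 40 Mb thus rests on the uncorrected scale, while on other chromosomes a smaller excess remained. In uncorrected signal 1.45% and 1.81% of the probes on other chromosomes were bright in α-amanitin A and B. In quantile normalised signal these shares were 2.65% and 2.25%, beside 2.60% in DRB. Beyond 40 Mb they were 3.95% and 3.28%, beside 3.68% in DRB. On that scale α-amanitin A thus stood above DRB in both sets, and the excess was not particular to DRB.

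**Figure D3:**
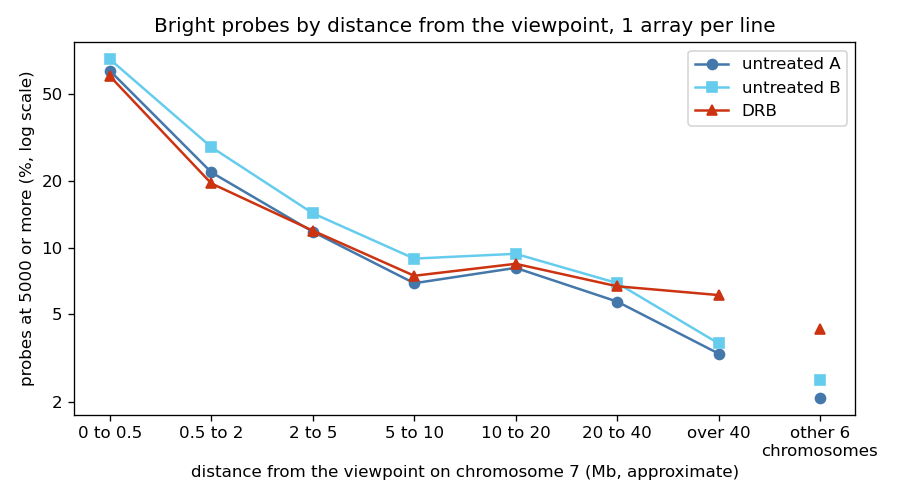
Share of probes with an uncorrected signal of 5000 or more (%, log scale) by distance from the viewpoint on chromosome 7 (Mb) and on the other 6 chromosomes together, 1 point per array. DRB lies below both untreated arrays at 0.5 to 2 Mb, with 19.6% against 22.0% and 28.6%, and above both beyond 40 Mb and on the other chromosomes.

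Equal numbers of probes from each array remove the overall brightness from this count. Of the 2% brightest probes of each array, 7693 in number, 7.16% lay within 2 Mb of the viewpoint in untreated A, 7.32% in untreated B and 4.77% in DRB. From 2 to 40 Mb the shares were 26.5%, 24.9% and 17.4%. Beyond 40 Mb they were 5.68%, 5.34% and 5.81%, so that the excess of DRB there was close to none in sets of equal size. The other 6 chromosomes, which hold 85.0% of the mouse probes, held 60.7%, 62.5% and 72.0%, the highest share being that of DRB. α-amanitin A, at 70.9% on other chromosomes and 4.97% within 2 Mb, came close to DRB, and α-amanitin B, at 61.0% and 6.90%, came close to the untreated arrays. The order of DRB and α-amanitin A depended on the size of the sets. Among the 1% brightest probes 71.5% lay on other chromosomes in DRB and 64.5% in α-amanitin A. Among the 5% brightest these were 75.6% and 78.1%. The share of all mouse probe signal on chromosome 7 was likewise lowest in DRB and α-amanitin A. It was 26.6% and 27.1% in untreated A and B, 21.9% in DRB, and 22.9% and 27.5% in α-amanitin A and B. DRB was the lowest of the 5 arrays on this measure. With the median of each array subtracted the shares were 33.1% and 32.4% in untreated A and B, 24.2% in DRB, and 30.0% and 35.8% in α-amanitin A and B, so that DRB then stood further below α-amanitin A. What sets α-amanitin A and DRB apart from the other 3 arrays was not tested.

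Most probes that were bright in both untreated arrays were also bright in DRB, but on other chromosomes they were the smaller part of the bright DRB probes. Of the 3334 probes on other chromosomes that reached 5000 in both untreated arrays, 2976, or 89.3%, did so in DRB. On chromosome 7 beyond 2 Mb, 42.1% of the bright DRB probes were bright in neither untreated array, and within 2 Mb 11.1%. Of the probes bright in both untreated arrays on chromosome 7, DRB was bright at 355 of 463 probes within 2 Mb, or 76.7%, and at 1074 of 1509 beyond it, or 71.2%. In sets of equal size, the 2% brightest probes on other chromosomes, 50.2% of the DRB set were shared with untreated A and 41.5% with untreated B, beside 42.9% shared by the untreated arrays. Of the 2808 probes in both untreated sets, 77.8% were in the DRB set. On chromosome 7 beyond 2 Mb the same share was 68.6% of 424 probes. Of the 14018 bright probes of DRB on other chromosomes, 2976 were bright in both untreated arrays, 3119 in 1 of them and 7923, or 56.5%, in neither. The probes bright in only untreated B were 43.9% of its own and those in only untreated A 24.5%. DRB had more bright probes there than either untreated array. At a fixed limit this by itself raises both its share bright in neither and the share of untreated bright probes found in it. In the untreated arrays the median signals of these 7923 probes were 922 (A) and 728 (B), which is below the limit but above the median of each array, at percentiles 83.2 and 77.1. Bright probes on other chromosomes stood mostly alone in every array, as 18.9% of them in DRB and 15.1% and 17.0% in untreated A and B had a bright neighbour. Between 2 and 40 Mb on chromosome 7 the share with a bright neighbour was 40.4% and 40.8% in the untreated arrays and 31.0% in DRB.

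Over the whole of chromosome 7, the DRB array ranked windows much as the untreated arrays did. With the 2 Mb on each side of the viewpoint left out, the Spearman correlation of running means was 0.69 between DRB and untreated A and 0.61 between DRB and untreated B, and 0.68 between untreated A and B. The overlapping windows share probes and are not independent, and no p-value is attached. The pair with the same dye, DRB and untreated B, had the lowest of the 3 values. Adjacent windows tended to differ in the same direction after DRB. The correlation between neighbouring windows was 0.13 for the difference from either untreated array over 1991 windows, beside 0.04 for untreated B minus A. These values include the windows within 2 Mb, where the DRB difference was lower than further out, and were not computed without them. On the other chromosomes the corresponding values for DRB lay between -0.03 and 0.02.

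Window by window, the DRB array was 2-fold apart from untreated A in 18.1% of the chromosome 7 windows and from untreated B in 21.4%, whereas the untreated arrays were 2-fold apart from each other in 18.0%. At single windows DRB was therefore about as far from an untreated array as these were from each other. DRB was 2-fold above both untreated arrays in 55 windows, or 2.76% of 1991, and 2-fold below both in 105, or 5.27%. Taking untreated A as the odd array in the same way gave 86 windows above and 29 below the other arrays, and untreated B gave 116 and 44. The balance turned with the scale: quantile normalisation over chromosome 7 alone gave 108 windows above and 52 below. Of the 105 windows below, 17 lay among the 66 within 2 Mb, and of the 55 above, none did. The windows above had low signal, with medians of 778 and 808 in untreated A and B and 2335 in DRB, and 0 of them passed the threshold of the DRB array described below. The windows below had medians of 3730 and 3785 in the untreated arrays and 1048 in DRB, and 17 of them passed the thresholds of both untreated arrays.

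limma, with the spread taken from the untreated and the α-amanitin duplicates, called 0 of 1991 chromosome 7 windows (0%) as changed at a Benjamini-Hochberg adjusted p under 0.05. Before adjustment, 95 windows lay under 0.05, 38 of them higher and 57 lower in DRB. Under the alternatives the number called ranged from 0 to 15. The 15 windows, 14 of them lower in DRB, came from a fit to the 3 arrays of the comparison only, whose spread rests on 1 pair of arrays. The window with the smallest p-value lay 28.5 Mb from the viewpoint, with a log2 difference of -2.97 (standard error 0.55, adjusted p = 0.895 from limma). Its signals were 7402 and 6246 in untreated A and B and 866 in DRB. The next lay at -51.7 Mb and was higher in DRB by 1.52, and the third at -55.7 Mb was lower, at -3.12, both with the same adjusted p from limma.

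Among windows whose untreated arrays lay within 2-fold of each other, the largest decreases, named here, lay both near the viewpoint and far from it. Over all windows in quantile normalised signal, 2-fold decreases against both untreated arrays were more frequent near the viewpoint. They made up 14 of 50 windows at 0.5 to 2 Mb and 7 of 657 beyond 40 Mb. Windows 2-fold above both numbered 0 and 29 in these classes. At -55.7 Mb the window signal was 6123 in untreated A, 5766 in untreated B and 685 in DRB, a difference of -3.07 on the log2 scale from the lower untreated array. The windows at 28.5, -23.4, 1.53 and -11.5 Mb followed with -2.85, -2.52, -2.31 and -2.26. The window at 1.53 Mb fell from 8057 and 14239 to 1621, and held 10 and 14 bright probes in the untreated arrays and 1 in DRB. The largest increases were smaller and started from windows with few or no bright probes. At -49.6 Mb the signal was 479 and 477 in untreated A and B and 2732 in DRB, 2.51 above the higher of the untreated arrays on the log2 scale, and 2 bright probes in DRB carried it. The windows at -72.5, -59.1, -61.6 and 10.3 Mb followed with 2.08, 2.02, 1.96 and 1.95. These windows were picked for their size and are a description without a test.

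Contact regions were called as runs of overlapping windows whose mean exceeds a threshold. It was set for each array from shuffled probes at a false discovery rate below 0.05. The threshold was 6834 in untreated A, 7018 in untreated B and 8045 in DRB. It left 3.82% and 4.08% of the windows above it in the untreated arrays and 1.96% in DRB. Of 62 regions above the thresholds of both untreated arrays, 33 (53.2%) held at least 1 window above the DRB threshold, among them 24 of the 47 regions beyond 2 Mb. With regions of untreated B alone 29 of 83 (34.9%) were found, with those of untreated A alone 34 of 85 (40%), and with quantile normalised signal 22 of 62 (35.5%). Runs were not joined across gaps, so that a missed region of 1 window at -30.43 Mb counted apart from a found one at -30.47 Mb. With gaps of up to 100 kb joined, 21 of 28 (75%) were found. Of the 59 DRB regions, 48 (81.4%) held a window above both untreated thresholds, 9 were found in 1 untreated array and 2 in neither. Regions of single arrays beyond 2 Mb gave like units. Of the 71 regions of untreated A, 41 were found in untreated B and 26 in DRB, and of the 67 regions of untreated B, 39 were found in untreated A and 24 in DRB. Of the 36 regions of DRB, 34 were found in untreated A and 29 in untreated B.

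The number of regions found again also depended on how the threshold was set. When the 4% highest windows of each array were taken in place of a threshold, an alternative added after the data were seen, 51 of 66 regions shared by the untreated arrays (77.3%) held a DRB window, and 39 of the 49 beyond 2 Mb. With the 2% highest windows these were 29 of 48 and 14 of 22, and with the 8% highest 91 of 132 and 77 of 116. In the other direction, 54 of 115 DRB regions (47.0%) then held a window high in both untreated arrays. Beyond 2 Mb, 63.0% of the regions of untreated A were then found in DRB and 53.4% in untreated B, and 59.4% of the regions of untreated B were found in DRB and 63.8% in untreated A. With the 2% highest windows, 63.2% of the regions of untreated A were found in DRB and 47.4% in untreated B, and 45.7% of the regions of untreated B were found in DRB and 62.9% in untreated A. Of the 2309 windows in each 4% set, 72.1% were shared by DRB and untreated A, 68.2% by DRB and untreated B and 75.4% by the untreated arrays. More than 40 Mb from the viewpoint, the set held 192 windows in DRB and 65 and 17 in untreated A and B.

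The 5 strongest distant contact regions of the untreated cells were all above threshold in DRB. These regions beyond 2 Mb with the highest untreated signal lay at 4.43, -14.3, 16.5, -3.09 and 31.9 Mb. The region at 4.43 Mb peaked at running means of 24006 and 22182 in untreated A and B and at 14777 in DRB, 1.84 times the DRB threshold. The region at -14.3 Mb peaked at 20656, 20471 and 18909, and that at 16.5 Mb at 21674, 20004 and 18233. At -3.09 Mb the peaks were 18906, 17669 and 14969, and at 31.9 Mb 15257, 13704 and 11060. The DRB peak was the lowest of the 3 in each, and it was below both untreated peaks in 38 of the 47 regions and above both in 3. The regions were chosen for high signal in the untreated arrays, so that this direction is in part fixed by the choice.

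**Figure D4:**
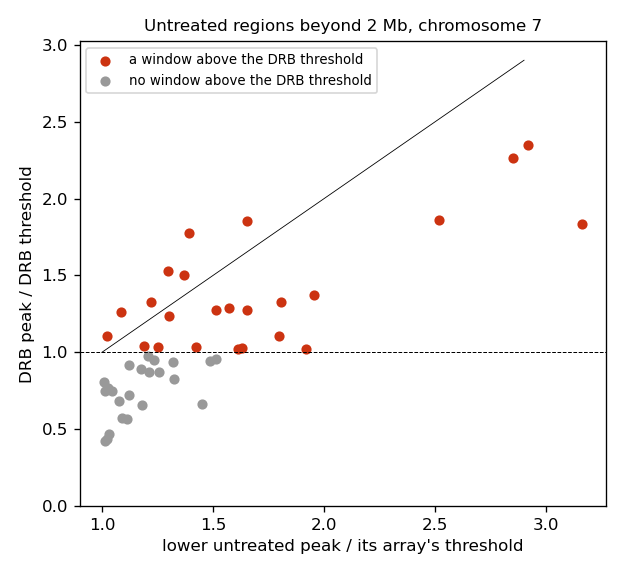
The 47 regions beyond 2 Mb that passed the threshold in both untreated arrays, with the lower of the untreated peaks divided by its array's threshold on the x axis and the DRB peak divided by the DRB threshold on the y axis. The dashed line marks the DRB threshold and the solid line equal values, and the 23 grey regions without a DRB window above threshold sit at low untreated values, of at most 1.51 on the x axis.

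The 23 regions below the DRB threshold were weaker and shorter in the untreated arrays than the 24 that passed. Their lower untreated peak had a median of 1.12 times its threshold and they ran over a median of 7 overlapping windows, against 1.59 times and 24.5 windows. In DRB they peaked at 0.42 to 0.98 of the threshold with a median of 0.77, where the median window of the chromosome stood at 0.18, and 6 of them reached at least 0.9. The 3 whose lower untreated peak was highest lay at -11.3, -24.7 and -23.9 Mb. Their running means peaked at 13104 and 10624 in untreated A and B and 7721 in DRB for the first, at 12274, 10446 and 7589 for the second, and at 9916, 12430 and 5348 for the third. The 2 DRB regions found in neither untreated array lay at -73.2 Mb, where the running mean peaked at 9073 in DRB and at 5247 and 5740 in untreated A and B, and at -3.79 Mb, where it peaked at 8050 in DRB and at 6554 and 5763. The region at -3.79 Mb was 1 window at 1.001 times the DRB threshold, and untreated A reached 0.96 of its own threshold there. The DRB region beside it, at -3.80 Mb, was found in untreated A.

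The other chromosomes held weaker signal in isolated probes, and here the DRB array was on average as close to the untreated arrays as these were to each other. The mean rank correlation over the 6 chromosomes was 0.63 for DRB with the untreated arrays and 0.61 for untreated A with B. By chromosome it ranged from 0.65 to 0.69 for DRB with untreated A, from 0.55 to 0.61 for DRB with untreated B and from 0.58 to 0.64 for the untreated arrays. The rise in bright probes in DRB was spread evenly, with shares of 4.05% on chromosome 12 to 4.62% on chromosome 11, where the untreated arrays had 1.98% to 2.72% on these 6 chromosomes. DRB exceeded both untreated arrays by 2-fold in 478 of 11270 windows, or 4.24%, and fell below both by 2-fold in 82, or 0.728%. As the odd array untreated A had 269 above and 148 below, and untreated B 464 and 210. limma called 0 of these windows (0%), with 662 at an unadjusted p under 0.05, of which 597 were higher in DRB. In uncorrected signal centred on the median window 570 were higher and 968 lower, so that their direction rests on the scale.

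**Figure D5:**
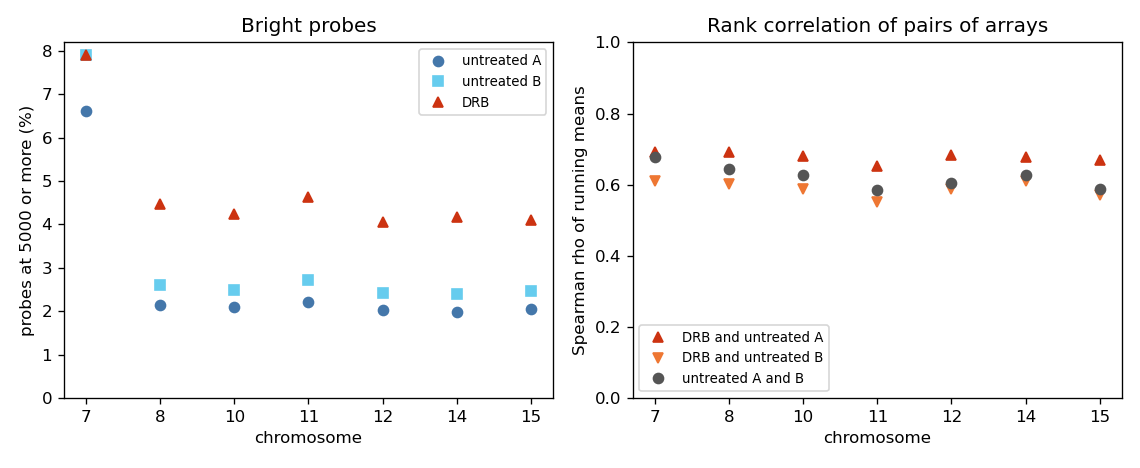
Left, share of probes with an uncorrected signal of 5000 or more (%) on each of the 7 mouse chromosomes of the array, 1 point per array. Right, Spearman correlation of running means for each pair of arrays, with 2 Mb on each side of the viewpoint left out on chromosome 7. On all 6 chromosomes without the viewpoint DRB has the highest share of bright probes, 4.05% to 4.62%. On each of them the correlation is highest for DRB with untreated A, at 0.65 to 0.69. The untreated arrays follow with 0.58 to 0.64, and DRB with untreated B is lowest at 0.55 to 0.61.

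Regions on the other chromosomes were called with the running median, which had to exceed every value of the shuffled chromosome. Untreated A and B shared 19 such regions, 13 of them on chromosome 8, 3 on chromosome 14, 2 on chromosome 12 and 1 on chromosome 11. DRB passed its own limit in 12 of them, 6 on chromosome 8 and all 6 on the other chromosomes. Several regions on chromosome 8 shared probes. Those missed in DRB from probe 38179 to 38247 formed a chain of overlapping regions with a found one at 38232 to 38328. The missed one at 43118 to 43146 overlapped a found one at 43128 to 43156. The missed ones between 37848 and 37889 overlapped no found region. The region at the first probes of chromosome 11 had running medians of up to 3136 and 5879 in untreated A and B and 8001 in DRB, 5.71 times its limit. That at the first probes of chromosome 14 reached 2078, 2834 and 5273. On chromosome 8 the region starting at probe 7750 reached 2605, 4030 and 8994. The highest running median in shuffled probes was also greater in DRB, 1338 to 1703 over the 6 chromosomes against 952 to 1198 in the untreated arrays, so that a region had to be brighter there to count. Of the 25 regions of DRB, 15 held a window above the limits of both untreated arrays and 5 held none above either.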

How the data were processed

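The authors deposited the scanner intensity of 1 dye of each array, which NimbleScan (version 2.3.19, per the file headers) had extracted, without background correction or normalization. The other dye of each array held another sample, not analysed here. No deposited column of another sample or of the authors' own comparisons was used. Probes were ordered within each chromosome by their running number, and the viewpoint was set at probe 37873 of chromosome 7, the centre of the highest running mean over the 5 arrays. Arrays, windows and lists were chosen with earlier results of these data known.

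Running means of 29 probes on uncorrected intensity gave the regions, with thresholds from 100 seeded shuffles. Non-overlapping windows of 29 probes, on log2 of the mean of quantile normalized intensity over all 5 arrays, gave differences and counts, with 2-fold (1 on the log2 scale) as the limit. limma 3.58.1 in R 4.3.3 (lmFit, eBayes with trend) fitted 5 arrays in 3 groups with Benjamini-Hochberg adjustment. The single DRB array is there assumed to vary like the duplicates. Windows named are the viewpoint window, the 5 that exceeded both untreated arrays and the 5 that fell below both by most, among those whose untreated arrays differed by less than 2-fold, and the 3 with the smallest limma p. Regions named are the 5 with the highest lower untreated peak, the 3 highest untreated ones below the DRB threshold and those found in DRB only. Python 3.11.15, numpy 2.4.6, pandas 2.3.3, scipy 1.17.1 and matplotlib 3.10.9 were used, and the region calling and the limma fit were tested on simulated data. Alternatives varied the scale, averaging, window, limits, thresholds, joining, filter on dim windows, dye term and the arrays left out.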

Additional observations from a re-analysis of the deposited data

How the results depend on the processing

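A single DRB array, its culture time and its dye limit every value, and the array signal over background gives no depth. Of 128 values recomputed under alternatives, 68 kept their direction and stayed within 1.5 times (counts) or the spread, 58 moved and 2 reversed. The causes were not tested. Reversed: the median difference beyond 2 Mb (-0.09) became 0.14 with quantile normalization over chromosome 7 alone and 0.30 in uncorrected signal without centring, both added after the data were seen. The median within 2 Mb (-0.67) was -0.31 and -0.19 there, -0.59 with centred uncorrected signal and -0.48 with window medians, and without 1 untreated array -0.71 to -0.65. The median beyond 2 Mb was also -0.10 with centring, -0.040 with averaged log2 signals, -0.025 with window medians, -0.079 and -0.069 with windows of 15 and 59 probes, and -0.066 to -0.063 without 1 untreated array.

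Windows 2-fold above both untreated arrays (55) and below both (105) numbered 108 and 52 with quantile normalization over chromosome 7, 0 and 25 with averaged log2 signals, 0 and 32 with window medians, 155 and 222 of 3851 with 15 probes, 9 and 43 of 979 with 59 probes, 161 and 291 at a limit of 0.5, 3 and 8 at a limit of 2, and 108 to 142 and 253 to 285 without 1 untreated array. Above the median signal 23 were higher. The share 2-fold apart from untreated B (21.4%) was 23.7% with quantile normalization over chromosome 7, 3.82% with averaged log2 signals, 4.02% with window medians, 26.1% and 15.8% with 15 and 59 probes, 27.1% above the median signal, 46.1% at a limit of 0.5 and 2.71% at a limit of 2.

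limma called 1 chromosome 7 window with window medians, 15 with the 3 arrays only, and 4 windows on other chromosomes with averaged log2 signals. With the replicate letter, which is also the dye, as a block it called 0 windows in both sets. No result without a test has a blocked value. The rank correlation on chromosome 7 (0.65) was 0.77 with averaged log2 signals, 0.75 with window medians and 0.48 as Kendall's tau, and on the other chromosomes (0.63) 0.77 with either averaging. Untreated regions found in DRB (33 of 62) were 21 of 28 with gaps joined, 70 of 132 with the running median and 51 of 66 with equal sets, and the share also fell, with a count within 1.5 times, to 22 of 62 (35.5%) in quantile normalized signal, 26 of 64 (40.6%) at a false discovery rate below 0.01, and 29 of 83 (34.9%) and 34 of 85 (40%) without untreated A and B. DRB regions found in both untreated arrays (48 of 59) were 21 of 26 with gaps joined, 29 of 36 beyond 2 Mb, 79 of 148 with the running median and 54 of 115 with equal sets. On other chromosomes 22 of 37 regions were found with 1 shuffle in place of 12 of 19. The chromosome 7 share of the DRB signal (21.9%) was 24.2% above the array median, where the untreated arrays had 33.1% and 32.4%. The bright-probe ratios of DRB to the higher untreated array, 1.70 on other chromosomes, 1.66 beyond 40 Mb and 0.75 within 2 Mb, were 1.13, 1.01 and 0.63 in quantile normalized signal, and moved little with limits of 2000, 10000 and 20000.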
